A study of Mus musculus with 10 samples.

Results

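Tumors of mice that drank dextrose water were examined for the genes that turn glucose into sorbitol and fructose, that use fructose, and that handle methylglyoxal and sugar-modified proteins. The 9 genes were taken by name out of 55359 genes in the deposited table: Akr1b3, Sord, Khk, Slc2a5, Glo1, Hagh, Ager, Fn3k and Fn3krp. Each matched 1 identifier, and all 9 passed the filter on low values (a mean normalized count of at least 1 over all tumors).

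The tumors grew from luciferase-expressing KPC K8484 cells, 1 murine pancreatic cancer line (Trp53 R172H/+, Pdx1-Cre), injected into the pancreas of immunocompetent mice at 10 weeks of age, whose strain is C57BL/6 in the labels and C57BL/6 J in the methods. The titles of the samples call the tumors PDX, while their source label and the methods name KPC K8484 cells, which is followed here. Both groups therefore carried the same engineered alleles, and the labels name no chemotherapy. The normoglycemic mice drank regular water (CTRL, n = 5 tumors) and the hyperglycemic mice drank 30% dextrose water (D30, n = 5 tumors). A period of 14 days is stated for metabolite measurements of such tumors and not separately for the sequenced ones. RNA of whole tumors was sequenced, so that host cells are included, and fewer cells of a type cannot be told apart from less RNA per cell. Tumors are named here by their column in the deposited table, N1, N2, N4, N5 and N6 for CTRL and T1, T2, T4, T5 and T7 for D30.

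In the polyol pathway, aldose reductase reduces glucose to sorbitol and sorbitol dehydrogenase oxidizes sorbitol to fructose, a route known for its activity when glucose is abundant. Ketohexokinase then phosphorylates fructose, whether made in the cell or imported, and so commits it to breakdown. Methylglyoxal is a reactive by-product of the triose phosphates of glycolysis. The glyoxalases convert it to D-lactate with the help of glutathione, while what escapes them modifies proteins, whose glycated forms are bound by receptors such as RAGE or repaired by the fructosamine kinases.

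Depth was 29915331 to 42122304 reads in the CTRL tumors and 29192261 to 37126175 in the D30 tumors. T4 was the D30 tumor least like the others of its group (Pearson r of log2 values 0.873 to 0.896 with each of them). T5 had the fewest genes with a read (20482) and a summed level of 6 erythroid markers of 187896, against 4128 to 12401 in the other D30 tumors. Each result on the 9 genes was therefore also computed without T4, without T5 and without both. The summed level of the 6 epithelial markers was 209890 to 335472 normalized counts in CTRL and 341271 to 475520 in D30. The sums did not overlap between the groups. Of the 6 markers 0 passed the limma or the edgeR test and 2 passed with DESeq2, although all 6 had an unadjusted p under 0.05, with 5 higher and 1 lower in D30. The lower one was Epcam, at 15.9 to 191 normalized counts in CTRL and 0 (T2) to 62.5 in D30. Its log2 fold change was -3.17 (limma adjusted p = 0.099). At such counts it hardly enters the sum, which rests on the other 5 markers.

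Of the 9 genes, Khk was the only gene that passed the test, and it rose in D30 tumors. The test was limma on log2(normalized count + 1) across 24560 genes, with Benjamini-Hochberg adjusted p under 0.05 as the call. The share called among all tested genes was 2.76%, with 1.4% called higher and 1.36% called lower in D30. By fitted direction, 4 of the 9 genes were higher and 5 were lower in D30, with a median log2 fold change of -0.01, against -0.06 over all tested genes, and with upper quartile scaling 5 were higher and 4 lower. Of all tested genes, 45.3% had a higher estimate in D30. Khk was also the only one of the 9 whose groups did not overlap, against 6.19% of all tested genes.

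Of the other 8 genes, each had a 95% interval that included 0, with the exception of Fn3k. The unadjusted p was under 0.05 for 2 of the 9 genes, Khk and Fn3k, against 17.3% of all tested genes. Calls by edgeR (4.13% of genes tested) and by DESeq2 (8.66%) also held 1 of the 9, and that was Khk, although Fn3k fell under the edgeR filter.

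**Figure D1:**
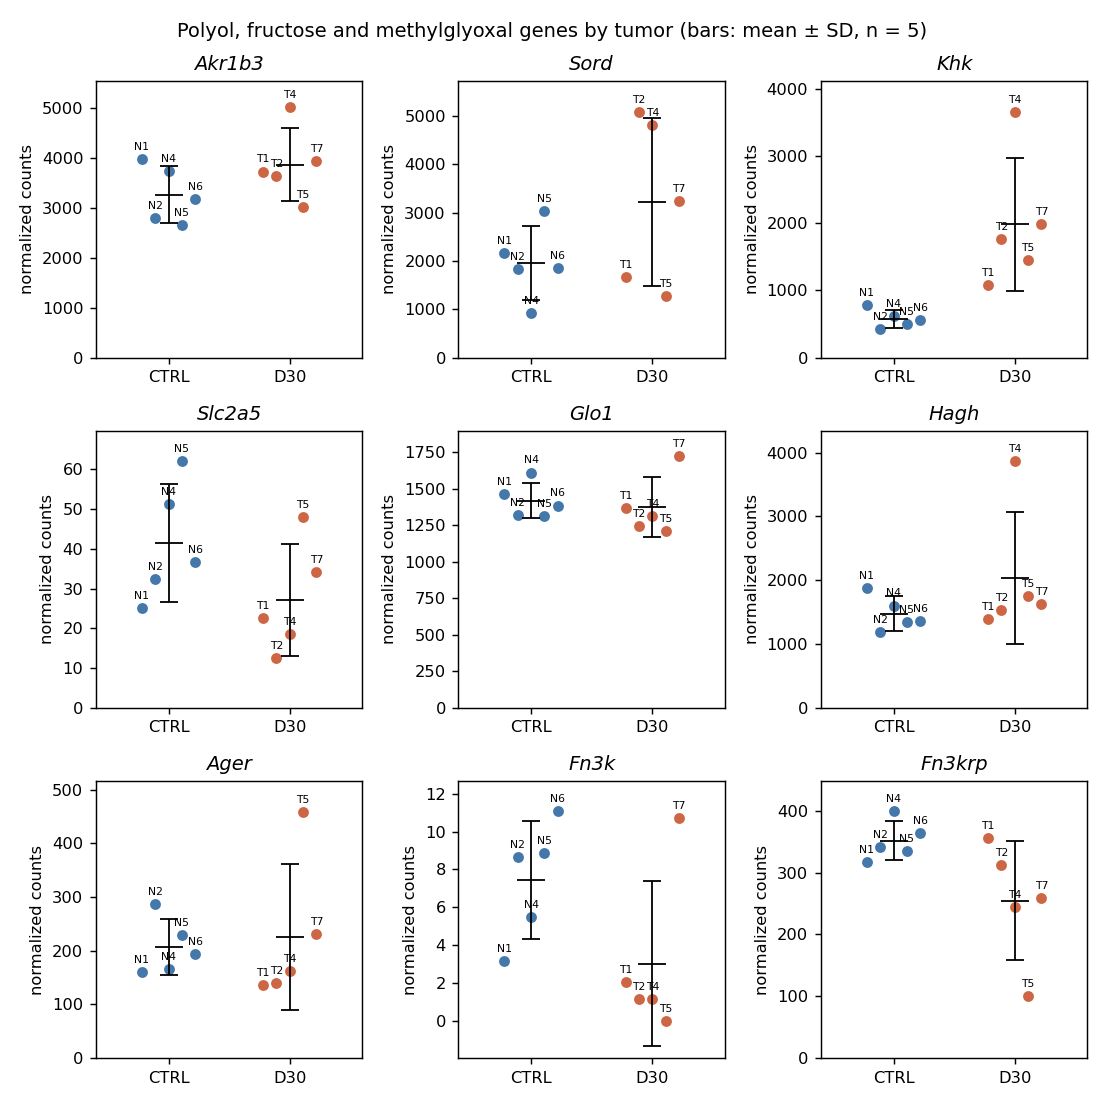
Normalized counts (vertical axes, linear) of each of the 9 genes in 5 CTRL and 5 D30 tumors; each point is 1 tumor, labelled by its column, and black bars give the mean ± SD. The Khk panel is the one without overlap, with CTRL tumors at 432 to 784 and D30 tumors at 1082 to 3648, and T4 is the highest D30 tumor in the Khk, Akr1b3 and Hagh panels.

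Khk encodes ketohexokinase (also called fructokinase), which makes fructose 1-phosphate. It lies at chr5:30921431-30931248 on the plus strand (GRCm38, GENCODE M21). Its normalized counts were 784, 432, 613, 500 and 560 in the CTRL tumors N1, N2, N4, N5 and N6. They were 1082, 1767, 3648, 1446 and 1989 in the D30 tumors T1, T2, T4, T5 and T7. Every D30 tumor stood above every CTRL tumor, the nearest pair being N1 and T1, and T4 stood highest.

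The mean of Khk was 578 ± 133 normalized counts in CTRL and 1986 ± 990 in D30 (SD, n = 5 each). The fitted rise was 3.21-fold (95% interval 2.07 to 4.99; log2 fold change 1.68, SE 0.294; limma adjusted p = 0.00898), and Khk ranked 190 of 24560 genes by p. Without T4 the log2 fold change was 1.43 (limma adjusted p = 0.00228) and without both T4 and T5 it was 1.46 (limma adjusted p = 0.00154). These values rest on 565 to 3154 reads per tumor. The exons of Khk share no stretch of 50 bases with another gene. The deposited counts are per gene and do not tell its alternative transcripts apart.

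**Figure D2:**
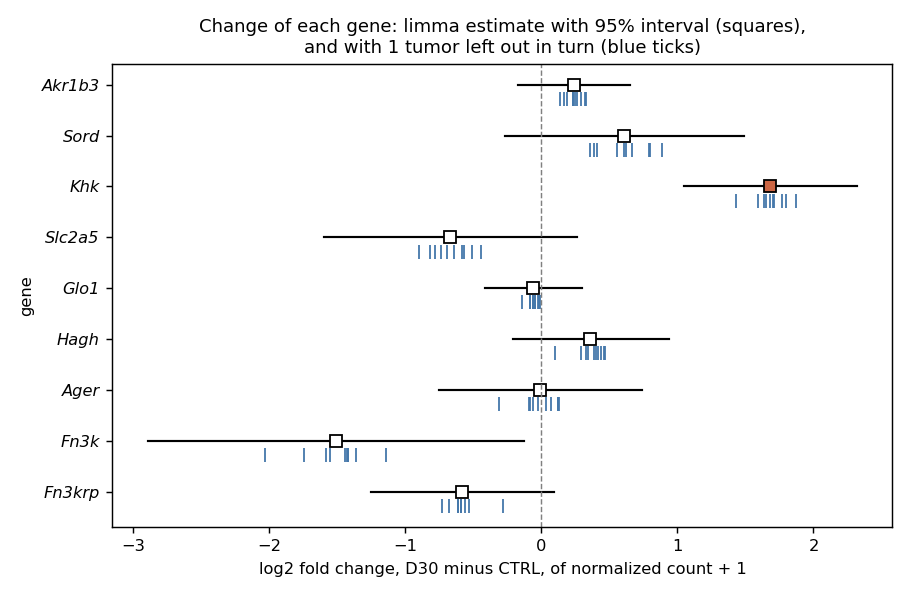
Log2 fold change, D30 minus CTRL, of normalized count + 1 (horizontal axis) for the 9 genes (vertical axis); squares are limma estimates over 5 tumors a group, filled where the adjusted p is under 0.05, lines are 95% intervals, and blue ticks are the estimates with 1 tumor left out in turn. The ticks of Khk stay between 1.43 and 1.87, whereas those of Ager lie on both sides of 0.

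Ketohexokinase is best known from liver and intestine, and the markers of these tissues and of the epithelial tumor cells were set beside it. The summed epithelial markers were themselves higher in D30, by 0.74 on the log2 scale, although Epcam alone was lower. Relative to that sum, Khk was between -9.09 and -8.11 (log2 ratio) in CTRL tumors and between -8.65 and -6.83 in D30 tumors. The groups then overlapped, as T1 and T5 stood below N1, and the difference was 0.94 (two-sided exact permutation test, p = 0.0397, n = 5 each). This ratio was chosen after the marker sums had been seen, and its p was not adjusted for other tests.

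Summed hepatocyte markers ranged from 1098 to 3577 normalized counts in CTRL and from 527 to 1256 in D30, with 2 of 6 markers called lower. Most of this sum was 1 gene, Ttr, at 1034 to 3474 in CTRL and 458 to 1181 in D30. Summed enterocyte markers ranged from 22468 to 31207 in CTRL and from 22895 to 35167 in D30, with 0 of the 5 tested markers called by limma or edgeR, 1 of 6 called by DESeq2 and 1 with an unadjusted p under 0.05. In both cases that marker was Fabp2, which was higher in D30, at 21.7 to 77.8 in CTRL and 56.1 to 200 in D30. Its log2 fold change was 1.53 (limma adjusted p = 0.107). Fabp2 hardly enters the sum, most of which was Apob and Vil1. The part of these cell types in the rise of Khk was not tested.

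The promoter of Khk is shown because it belongs to the only gene of the 9 that passed the test. It was taken from RefSeq (GRCm38.p6, chr5:30921309-30921608, plus strand, 250 bases before to 50 after the start), and capitals mark an E-box, CACGTG, at position -71 from the start. The M21 gene begins at 30921431, inside this window, so that the RefSeq start and the E-box lie downstream of that beginning.

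Khk: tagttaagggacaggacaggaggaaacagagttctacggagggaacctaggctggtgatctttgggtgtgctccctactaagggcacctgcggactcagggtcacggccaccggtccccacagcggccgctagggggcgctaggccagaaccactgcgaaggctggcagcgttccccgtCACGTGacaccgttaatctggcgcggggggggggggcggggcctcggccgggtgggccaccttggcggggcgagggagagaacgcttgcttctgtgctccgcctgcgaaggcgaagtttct

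The E-box letters, a palindrome that reads the same on both strands, occur in 7.15% of the 32851 RefSeq promoter windows of this length. The shorter hypoxia response core ACGTG, searched on both strands, matched in the Khk window inside the same letters and occurs in 19.6% of windows. Promoters were found for 7 of the 9 genes, and the missing entries were Akr1b3 and Fn3k. No E-box stood in the windows of the other 6 genes. The antioxidant response element core TGACNNNGC (12.4% of windows, both strands) matched in 1 of the windows of Hagh, at position 20. The NFAT core TGGAAA (21.4% of windows, both strands) matched in Glo1, at position -108. The windows of Hagh and Glo1 lie wholly inside their M21 genes. A match is a description of letters and not of binding.

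Over the 10 tumors, the 3 genes whose log2 levels followed Khk most closely, of 13523 genes with a mean of at least 50, were Cdc42ep5 (Pearson r = 0.989), Rassf7 (r = 0.974) and Krtcap3 (r = 0.971). These correlations are descriptions over 10 points that share the difference between the groups and the authors' scaling. Krtcap3, which ordered the 10 tumors as Khk did (Spearman rho = 1.0), had 678 ± 67.1 normalized counts in CTRL and 2222 ± 550 in D30 (log2 fold change 1.69, limma adjusted p = 0.00133). Cdc42ep5 also rose (1.05, limma adjusted p = 0.0202), while Rassf7 had a log2 fold change of 0.6 that missed the threshold (limma adjusted p = 0.124).

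Krtcap3 lies on the same chromosome, 320 kb from Khk, and the other pair lies on chromosome 7. Of the 11 tested genes within 100 kb of Khk, 0 were called by limma or edgeR and 1 by DESeq2, with fold changes from -0.69 to 1.39 on the log2 scale and a median of 0.06. The 1.39 belonged to Tcf23 (limma adjusted p = 0.196), which was the one called by DESeq2 and the one among these 11 with an unadjusted p under 0.05 in limma.

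**Figure D3:**
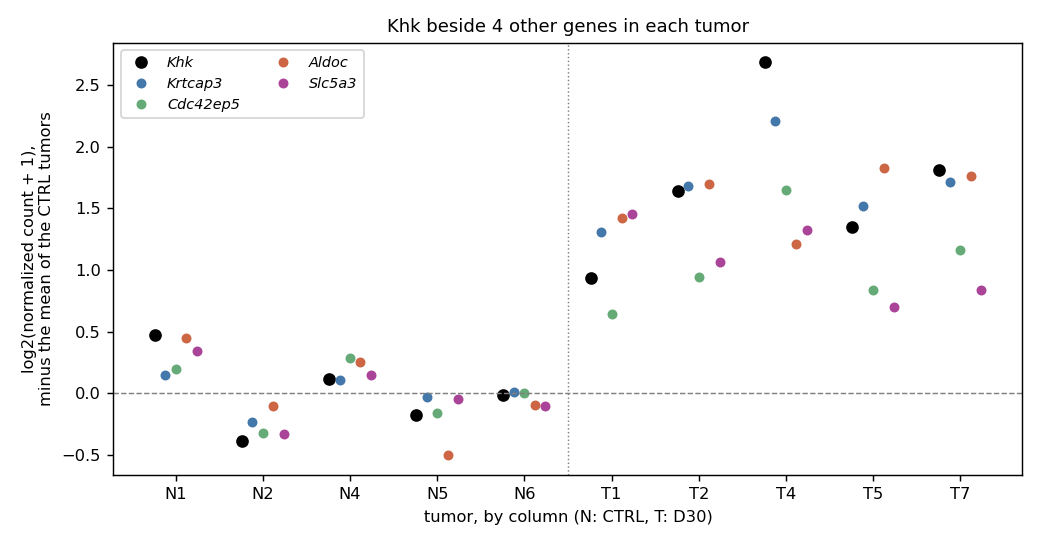
Log2(normalized count + 1) minus the CTRL mean (vertical axis) for Khk, Krtcap3, Cdc42ep5, Aldoc and Slc5a3 in each of the 10 tumors (horizontal axis, N for CTRL and T for D30; each point is 1 gene in 1 tumor). All 5 genes were above their CTRL range in all 5 D30 tumors (6.19% of all tested genes had no overlap in either direction), and T4 was the highest tumor for Khk, Krtcap3 and Cdc42ep5 but the lowest D30 tumor for Aldoc. The genes beside Khk were picked from the correlated and the called genes. Rassf7, Cryl1, Esd and Aldh1a3, whose groups overlapped, are not drawn, so that the lack of overlap follows from the choice.

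The other genes of the polyol and fructose route gave estimates that did not pass the test. Akr1b3, the mouse aldose reductase (chr6:34302434-34317478, minus strand), had 3972, 2792, 3740, 2655 and 3177 normalized counts in N1, N2, N4, N5 and N6 and 3728, 3636, 5012, 3008 and 3938 in T1, T2, T4, T5 and T7. The groups overlapped, with only T4 above the CTRL range. The log2 fold change was 0.24 (95% interval -0.17 to 0.65; limma adjusted p = 0.556). Of the 50-base stretches in the exons of Akr1b3, 13.6% also occur in other annotated genes. The largest share was with Gm38056 (12.8%), at a mean of 0.4 normalized counts. The antisense gene Gm14546, which overlaps it, was at 0 in every tumor but N5.

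Sord, sorbitol dehydrogenase (chr2:122234749-122265340, plus strand), varied widely within both groups. Its normalized counts were 2160, 1832, 914, 3039 and 1860 in N1, N2, N4, N5 and N6, and 1666, 5089, 4809, 1284 and 3237 in T1, T2, T4, T5 and T7. T2, T4 and T7 stood above the CTRL range, while T1 and T5 lay inside it. Sord thus had an estimate of 0.61 on the log2 scale (95% interval -0.27 to 1.49; limma adjusted p = 0.48). Of its 50-base stretches, 31.3% also occur in 1 other gene, Gm6652, which had a mean of 16.3 normalized counts.

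Slc2a5, the fructose transporter GLUT5 (chr4:150119283-150144169, plus strand), was low. It had 25.2, 32.5, 51.2, 62.0 and 36.8 normalized counts in N1, N2, N4, N5 and N6, and 22.6, 12.6, 18.5, 48.1 and 34.1 in T1, T2, T4, T5 and T7, from 11 to 70 reads a tumor. T1, T2 and T4 stood below the CTRL range and the other D30 tumors inside it. The fit gave -0.67 on the log2 scale (95% interval -1.6 to 0.26; limma adjusted p = 0.463).

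The glyoxalases came next along the methylglyoxal route. Glo1, glyoxalase I, converts the adduct that methylglyoxal forms with glutathione (chr17:30584936-30626871, minus strand). It had the narrowest interval of the 9 genes, with a log2 fold change of -0.06 (95% interval -0.41 to 0.3; limma adjusted p = 0.9). Its normalized counts were 1462, 1324, 1612, 1317 and 1386 in N1, N2, N4, N5 and N6, and 1370, 1245, 1315, 1213 and 1727 in T1, T2, T4, T5 and T7. The groups overlapped, with T7 highest and T5 lowest of all 10 tumors. Glo1 overlaps 6 other annotated genes, of which Dnah8 was highest, at 14.9 to 53.9 normalized counts, with 0 shared exonic bases. AC165962.3, AC165962.4 and 1700097N02Rik share 418, 214 and 90 exonic bases with it and had at most 11.4 normalized counts in any tumor. Of the 50-base stretches of Glo1, 9.59% also occur in other genes.

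Hagh, glyoxalase II, releases D-lactate and returns the glutathione (chr17:24840143-24864450, plus strand). Its normalized counts were 1878, 1189, 1603, 1343 and 1367 in N1, N2, N4, N5 and N6, and 1384, 1525, 3871, 1750 and 1627 in T1, T2, T4, T5 and T7. T4 alone stood above the CTRL range. The log2 fold change was 0.36 (95% interval -0.21 to 0.94; limma adjusted p = 0.524), and without T4 it was 0.1 (limma adjusted p = 0.752). Fahd1, at 498 to 1083 normalized counts, overlaps Hagh on the opposite strand with 0 shared exonic bases, and whether reads were counted by strand is not given in the sources used here.

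Ager encodes RAGE, the receptor of glycated proteins (chr17:34597862-34600936, plus strand). It had 160, 286, 165, 229 and 193 normalized counts in N1, N2, N4, N5 and N6, and 136, 140, 162, 459 and 231 in T1, T2, T4, T5 and T7. T5 stood above the CTRL range and T1 and T2 just below it. The log2 fold change was -0.01 (95% interval -0.75 to 0.74; limma adjusted p = 0.995), and without T5 it was -0.31 (limma adjusted p = 0.59). Ager is known for its level in lung. Summed lung markers ranged from 289 to 578 in CTRL and from 189 (T5) to 1264 in D30, with Sftpa1 listed at 0 in every tumor and 0 of the 5 tested markers called by limma or DESeq2 (1 with an unadjusted p under 0.05). Most of this sum was 1 gene, Aqp5, at 271 to 540 in CTRL and 127 to 1234 in D30. Sftpb, Sftpc and Scgb1a1 had at most 11.3 normalized counts in any tumor.

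Fn3k and Fn3krp, neighbours on chromosome 11 and the same strand, encode the kinases that remove sugar adducts from proteins, fructosamine 3-kinase and its related protein. Fn3k (chr11:121434913-121450491) was close to the limit of detection. It had 3, 12, 6, 10 and 13 reads in N1, N2, N4, N5 and N6, and 2, 1, 1, 0 and 10 reads in T1, T2, T4, T5 and T7. At or under 3 reads, taken here as the floor, stood 4 D30 tumors and 1 CTRL tumor. The log2 fold change was -1.51 (95% interval -2.89 to -0.13; unadjusted p = 0.0342, limma adjusted p = 0.245), which depends on the pseudocount at such counts, and T7 lay within the CTRL range.

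Fn3krp (chr11:121421401-121431288) had 318, 342, 400, 335 and 364 normalized counts in N1, N2, N4, N5 and N6, and 356, 312, 245, 101 and 259 in T1, T2, T4, T5 and T7. T1 lay inside the CTRL range and the other 4 D30 tumors below it, T5 by far. The fit gave -0.58 on the log2 scale (95% interval -1.25 to 0.09; limma adjusted p = 0.368). Without T5 it was -0.28 (limma adjusted p = 0.501).

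Levels between genes were compared as normalized counts per kilobase of the principal transcript. In CTRL, Akr1b3 was highest (2356), followed by Glo1 (1260), Hagh (1239), Sord (834), Khk (365), Ager (151), Fn3krp (140), Slc2a5 (13.2) and Fn3k (7.12). Neighbours in this order that did not overlap over the 5 tumors were Akr1b3 and Glo1, Khk and Ager, and Fn3krp and Slc2a5. In D30 the mean per kilobase of Khk was 1255, close to that of Sord (1368) and Glo1 (1219), and the ranges of the 3 genes overlapped. The order depends on the length used: with all annotated exons, Glo1 stood at place 6 and Sord at place 1 in CTRL.

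Ratios within a tumor set neighbouring steps of a route against each other. Khk over Slc2a5, the kinase against the fructose importer, was 3.81 ± 0.7 (log2, SD, n = 5) in CTRL and 6.16 ± 1.1 in D30. T5, at 4.88, lay just under N1, at 4.9, and the other 4 D30 tumors lay above every CTRL tumor. The difference was 2.35 (two-sided exact permutation test, p = 0.0159, adjusted over the 4 ratios p = 0.0635, where 0.00794 is the smallest p the design allows), so that it missed the threshold after adjustment. With a pseudocount of 5 it was 2.26 and passed (exact permutation test, adjusted p = 0.0317).

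The other ratios also missed the threshold. Akr1b3 over Sord differed by -0.37 (exact permutation test, adjusted p = 0.476), Glo1 over Hagh by -0.42 (exact permutation test, adjusted p = 0.275) and Fn3k over Fn3krp by -0.93 (exact permutation test, adjusted p = 0.27). The groups overlapped in each. Fn3k over Fn3krp was -0.16 with a pseudocount of 5 and -1.42 without T7, Glo1 over Hagh was -0.15 without T4 and -0.03 without both T4 and T5, and Akr1b3 over Sord was -0.07 without N4 and -0.14 without T2. T4 was lowest in Glo1 over Hagh, at -1.56, and T7 was highest in Fn3k over Fn3krp, at -4.48.

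**Figure D4:**
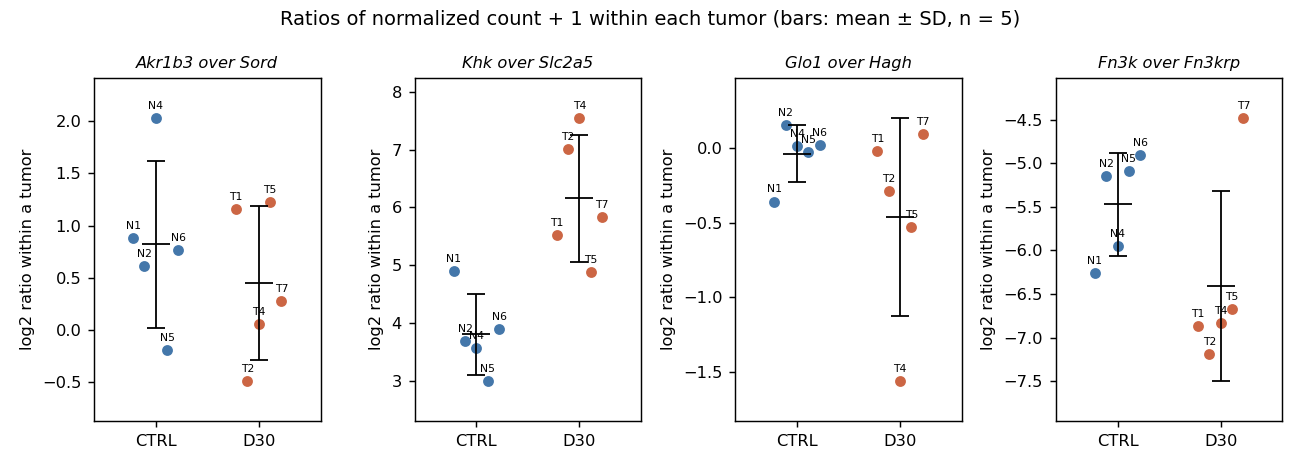
Log2 ratio of normalized count + 1 within each tumor (vertical axes) for 4 pairs of genes in CTRL and D30; points are tumors labelled by column and black bars give the mean ± SD (n = 5). Khk over Slc2a5 is 3.81 on average in CTRL and 6.16 in D30, with T5 level with N1.

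The genes around these routes were taken as 5 lists of 65 genes in all. Of these, 9 passed the limma test (13.8%, against 2.76% of all tested genes), 6 higher and 3 lower in D30, and the median log2 fold change was 0.28. The lists were drawn up with earlier results of these data known. The 2 shares are therefore descriptions, and whether the lists hold more calls than other genes was not tested. Library size scaling lowered the median of all genes to -0.27 and that of these 65 genes to 0.06. On the authors' scaling, 45.3% of all tested genes had a higher estimate in D30, against 63.1% of these 65. Among the aldo-keto reductases and sugar alcohol enzymes beside Akr1b3 and Sord, 8 of 8 had a higher estimate in D30 (median 0.53; with library size scaling 7 of 8, Akr1e1 turning lower, and a median of 0.31) and 2 passed. Akr1b7, an aldose reductase-like protein, rose from 49.6 ± 24.4 to 549 ± 514 normalized counts (log2 fold change 3.23, limma adjusted p = 0.0145). Its D30 tumors, at 140 to 1423, were all above the CTRL tumors, at 10.8 to 75.7. Cryl1, a dehydrogenase of L-gulonate, rose as well (1.1, limma adjusted p = 0.035), with T5 inside the CTRL range. Dcxr, which reduces L-xylulose, had 343 to 495 in CTRL and 614 to 706 in D30 and did not pass (0.7, limma adjusted p = 0.0591).

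Of 14 genes of fructose transport and breakdown beside Khk and Slc2a5, 8 had higher and 6 lower estimates (median 0.27; 0.06 with library size scaling), and 1 passed in each direction. Aldoc, an aldolase able to split fructose 1-phosphate, rose from 877 ± 219 to 2596 ± 447 (log2 fold change 1.58, limma adjusted p = 0.00239), with D30 tumors at 1978 to 3032 above all CTRL tumors at 603 to 1169. Slc2a2, the transporter GLUT2, which carries glucose and fructose, fell from 18.3 to 35.4 normalized counts in CTRL tumors to 0 to 6.39 in D30 tumors (log2 fold change -3.27, limma adjusted p = 0.0162), where 3 D30 tumors were at or under 3 reads. The size of the Slc2a2 estimate depends on the pseudocount, from -2.06 with 5 to -3.73 with 0.5, with the call kept in both. GLUT2 is known from islets and liver. Summed islet markers ranged from 11.5 to 1502 in CTRL and from 0 to 83.6 in D30, with 3 of 7 called lower and 3 at 0 in every D30 tumor, and their part in the fall of Slc2a2 was not tested. Aldoa, the main glycolytic aldolase, had a log2 fold change of 1.25 that missed the threshold (limma adjusted p = 0.0756).

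**Figure D5:**
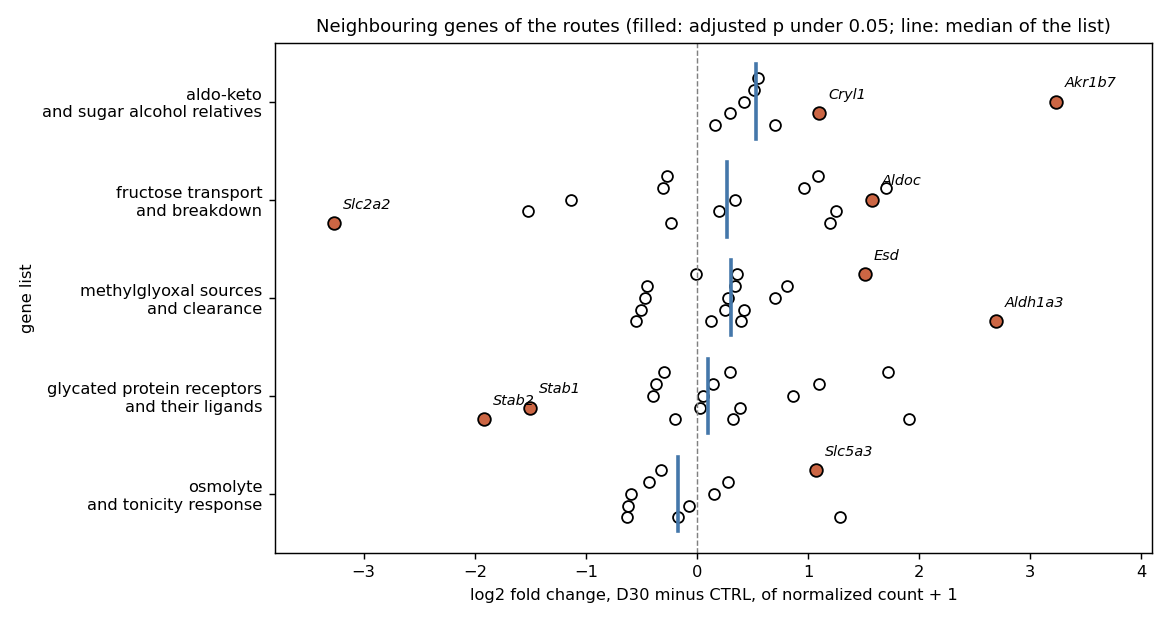
Log2 fold change, D30 minus CTRL, of normalized count + 1 (horizontal axis) for the 65 genes of 5 lists (vertical axis, spread only for legibility); each point is 1 gene, filled and named where the limma adjusted p is under 0.05, and the blue line is the median of the list. The 8 aldo-keto and sugar alcohol genes are all above 0 on the authors' scaling, with a median of 0.53, and the filled points hold 6 genes above 0 and 3 below it.

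Beside Glo1 and Hagh, 11 of 16 genes listed under methylglyoxal sources and clearance had higher estimates (median 0.31; 10 of 16 and 0.09 with library size scaling), and 2 passed. The list is broad and also holds enzymes known for other substrates, the 2 that passed among them. Esd, which hydrolyses S-formylglutathione, rose from 3294 ± 1421 to 9606 ± 4913 (log2 fold change 1.51, limma adjusted p = 0.0243), with T2 inside the CTRL range. Aldh1a3, a retinaldehyde dehydrogenase, rose from 157 ± 60.0 to 1299 ± 939 (2.69, limma adjusted p = 0.0253), although T4, at 179, lay inside the CTRL range of 76.6 to 233. Tpi1, which interconverts the triose phosphates from which methylglyoxal forms, did not pass (0.81, limma adjusted p = 0.149).

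Beside Ager, 10 of 16 receptors and ligands of glycated proteins had higher estimates (median 0.1; 7 of 16 and -0.12 with library size scaling), and 2 passed, both lower. Stab1 and Stab2, scavenger receptors of sinusoidal endothelium and, for Stab1, of macrophages, fell by 1.5 and by 1.92 on the log2 scale (limma adjusted p = 0.0228 and 0.0208). Stab1 ranged from 2588 to 5184 in CTRL and from 697 to 1987 in D30, and Stab2 from 269 to 598 and from 61.8 to 262, so that neither overlapped. Summed endothelial markers ranged from 10081 to 16799 in CTRL and from 4115 to 8398 in D30, with 1 of 5 called lower and no overlap of the sums. Most of this sum was the called marker, Cdh5, at 7205 to 14529 in CTRL and 2480 to 6142 in D30. Pecam1, Kdr, Tek and Emcn also had lower estimates, but the groups overlapped in each, and T1 and T7 stood above the CTRL range for Tek. Summed macrophage markers ranged from 25390 to 50521 in CTRL and from 14613 to 18977 in 4 D30 tumors, all below CTRL, while T4 stood at 61790, and 1 of 6 was called lower. Most of the sum in T4 was 1 gene, Lyz2, at 46217. The other markers were split in T4. Cd14 (6982) and Cd68 (1631) stood above the CTRL range and Mrc1 (5840) inside it. Csf1r, the called marker, stood at 693, below CTRL at 2323 to 3528, and Adgre1 at 427, below CTRL at 489 to 858. The part of these cells in the fall of Stab1 and Stab2 was not tested. Lgals3, or galectin-3, had a log2 fold change of 1.1 that missed the threshold (limma adjusted p = 0.18).

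Sorbitol, the product of Akr1b3, is also an osmolyte, and 11 osmolyte and tonicity genes were therefore followed. Of these, 7 had lower and 4 higher estimates (median -0.17; -0.39 with library size scaling), and 1 passed. Slc5a3, the sodium-coupled importer of myo-inositol, rose from 645 ± 115 to 1369 ± 298 (log2 fold change 1.07, limma adjusted p = 0.0149), with D30 tumors at 1034 to 1744 above CTRL tumors at 507 to 808. Nfat5, the transcription factor that responds to tonicity, had a log2 fold change of -0.59 (limma adjusted p = 0.406), and Pnpla6, which breaks down phospholipid to glycerophosphocholine, had -0.62 (limma adjusted p = 0.439).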

How the data were processed

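Strand-specific libraries of tumor RNA were sequenced, trimmed and aligned with STAR (2.7.0e). The authors' processing notes name GRCm39, while the methods name hg38, and the deposited identifiers are mouse Ensembl genes. Each value is a normalized signal made by the authors, reads over a size factor of the tumor; 100.0% of values gave whole reads (tolerance 0.01) once that was undone. The columns name groups but no single labelled animal. Part of the genotype of the line is not reported here. The labels call the tumors biological replicates.

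GENCODE M21 (GRCm38) named 52083 identifiers (94.1%), and positions are those of M21. limma (3.58.1, R 4.3.3) with a mean-variance trend was fitted to log2(normalized count + 1) of the 24560 genes with a mean of at least 1. P values were Benjamini-Hochberg adjusted across all genes tested, and the script was tested on simulated data. edgeR (4.0.16) and DESeq2 (1.42.0) on recovered reads, other scalings, filters and pseudocounts, and leaving out tumors were alternatives. For ratios between genes, an exact permutation test (two-sided) was used.

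The genes, lists and tests were chosen with earlier results of these data known. Genes named were the 9 genes, overlapping genes, the called genes and the 3 smallest p of each list, and the 3 genes most correlated with Khk. Tcf23 and the markers named were chosen after their values were seen. No pair of tumors within a group was alike within sampling noise.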

Additional observations from a re-analysis of the deposited data

Results flagged for a closer look

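In 2 of 26 groups tested, 1 tumor stood apart from the others of its group by Dixon's 95% criterion, which chance alone meets in about 1 in 20 groups. Hagh stood at 3871 normalized counts in T4, against 1384 to 1750 in the other 4 D30 tumors. The log2 ratio of Fn3k over Fn3krp stood at -4.48 in T7, against -7.19 to -6.67 in the other 4 D30 tumors, of which each had at most 3 reads of Fn3k.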

How the results depend on the processing

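Khk was the 1 called gene of the 9 under all 21 alternatives, with log2 fold changes of 1.43 to 1.87 and adjusted p of 7.03e-06 to 0.0361. Akr1b7 and Aldoc were also called in all 21, Slc2a2 in 20, Slc5a3 in 19, Stab1 in 18, Stab2 in 17, Esd in 16, Aldh1a3 in 15 and Cryl1 in 13. All but Akr1b7, Aldoc and Khk lost the call without N2, to adjusted p of 0.0603 to 0.118; the other losses came without N1, N4, N5, N6, T1, T2 or T7, and for Cryl1 also with library size scaling. Of the genes that missed the threshold, Dcxr, Aldoa and Tpi1 passed without T4 and with DESeq2, and Lgals3 with DESeq2. Dcxr passed in 6 of the 21, also with edgeR under both scalings (adjusted p = 0.042 and 0.0449) and with a filter at a mean of 10 (limma adjusted p = 0.0393). Fn3k could be fitted in 18 of the 21.

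The sign of Ager turned to 0.0105 with upper quartile scaling, 0.14 with edgeR and TMM, 0.12 with edgeR and DESeq2 size factors, and 0.12 with DESeq2, and it ranged from -0.31 to 0.13 with 1 tumor left out. Glo1 turned to 0.0174 without both T4 and T5. Calls in the 5 lists numbered 16 with DESeq2 and 16 without both T4 and T5, against 9, and 2 to 15 with 1 tumor left out (2 without N2, 4 without N5, 4 without N6 and 15 without T4). Over all genes they numbered 1867 with DESeq2 and 2418 without both T4 and T5, against 678, and 279 to 1573 with 1 tumor left out (279 without N2, 332 without N6, 340 without N5, 433 without T7 and 1573 without T4). Khk over Slc2a5 was 2.26 with a pseudocount of 5 and then passed. The cause of these shifts was not tested.

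Library size scaling gave 864 calls, 240 higher and 624 lower, with the all-gene median at -0.27 in place of -0.06, and edgeR gave 457 higher and 250 lower, against 344 and 334. No paired analysis was possible because the column numbers do not match the labels' replicate numbers. Neither the labels nor the methods name pairs of mice. The methods state that mice with tumors were randomized to the treatments, so equal replicate numbers would not by themselves mark pairs. Depth limits Fn3k most, with 0 to 13 reads a tumor, and counting error alone is large there.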
